A study of Mus musculus with 2 samples.

Results

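The 6 genes described here are the forkhead factors Foxo1, Foxo3 and Foxo4, the phosphoinositide 3-kinase (PI3K) subunits Pik3ca and Pik3r1, and the kinase Akt1, which is neither a FOXO factor nor a PI3K subunit but stands between them. They were taken by name from the 21951 genes and transgene sequences in the count table. Their levels were read from unique molecular identifiers (UMIs, one per captured transcript copy) as counts per 1000000 UMIs of a group (CPM). Since the gene length is not in this measure, levels are compared between cells and not between genes.

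PI3K is activated below growth factor receptors such as the insulin, VEGF and Tie receptors. It is a dimer of a catalytic subunit, for which Pik3ca encodes the p110alpha form, and a regulatory subunit, for which Pik3r1 encodes the p85alpha form that holds the enzyme at receptors. Its lipid product recruits the kinase Akt1 to the membrane, and AKT phosphorylates FOXO factors, which then leave the nucleus and stop activating their target genes. In vessels, Foxo1 is known as a brake on endothelial growth and metabolism and Pik3ca as a driver of sprouting. This control acts on proteins, so transcript levels do not report the activity of any of these factors.

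The data were 1 pooled 10x Genomics library from C57BL/6 pups, with the gene expression reads and the hashtag reads listed as 2 samples. Its labelled hashtag groups were heart and liver cells, but the marker gates below also found cell types of other tissues. The iSuRe pups carried Cdh5-CreERT2, a tamoxifen-inducible Cre driven in endothelial cells. Per the labels the mice were given 4-hydroxytamoxifen once at postnatal day 3 at 40 mg/kg and their tissues were taken 3 days later, at postnatal days 6 to 7. Hashtags marked the cells of 3 lines in each organ, a control and the iSuRe-Cre and iSuRe-HadCre lines. iSuRe-Cre is a transgene that expresses the membrane reporter MbTomato together with Cre permanently, and iSuRe-HadCre is a Rosa26 allele that expresses Cre and FlpO transiently before MbTomato. According to the study's account, but not to the labels, the iSuRe groups also carried floxed Notch1. The control genotype, Cdh5-CreERT2 included, and the number of pups were not found in these sources. WPRE, a transgene element added to the reference, was read in every group. It was at 562 and 396 CPM in control heart and liver, at 1055 and 1070 with iSuRe-HadCre and at 63.5 and 105 with iSuRe-Cre. The study removed cells with a normalized WPRE level of 0.5 or less, which the main groups here did not. Requiring WPRE in the iSuRe groups, an alternative, kept 145 of 435 iSuRe-Cre and 292 of 311 iSuRe-HadCre heart cells. In liver it kept 379 of 858 and 66 of 76. Under it 52 ratios stayed inside the main interval and 2 moved outside. The part of WPRE in the comparisons was not tested further. Cells were sorted as CD31+ and by Tomato signal, so the control and iSuRe groups can differ in the sort as well as in the alleles.

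Endothelial cells were barcodes with more than 2000 and fewer than 75000 UMIs, more than 500 genes, mitochondrial and haemoglobin shares below 5% each and a log-normalised Cdh5 level above 0.9. Of 14348 barcodes that passed the quality filters, 7704 passed the Cdh5 limit and 1988 of these carried 1 hashtag. The groups held 435 heart cells of iSuRe-Cre, 311 of iSuRe-HadCre and 254 of control, and 858, 76 and 54 liver cells of the same lines. A group summed to between 624048 and 9341120 UMIs, and the median cell held from 7322 UMIs in iSuRe-HadCre heart to 16379 in iSuRe-Cre heart. Notch1, the floxed gene, was at 138 and 160.2 CPM in control heart and liver, at 23.2 and 30.7 with iSuRe-HadCre and at 12.6 and 21.4 with iSuRe-Cre. Each group is 1 sample, so there was no replicate and no test. All intervals are exact 95% intervals of counting error only, and a gene was counted as past the limit at a ratio of at least 1.5 or at most its inverse. Cells and RNA per cell cannot be told apart in summed UMIs.

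In the annotation of the GRCm38 build, Foxo1 (ENSMUSG00000044167) spans chr3:52268336-52353221, Foxo3 (ENSMUSG00000048756) chr10:42181841-42276755, Foxo4 (ENSMUSG00000042903) chrX:101254528-101260873 and Pik3ca (ENSMUSG00000027665) chr3:32397671-32468486. Pik3r1 (ENSMUSG00000041417) spans chr13:101680563-101768217 and Akt1 (ENSMUSG00000001729) chr12:112653821-112674884. Foxo1, Foxo4 and Pik3ca lie on the plus strand and the others on the minus strand. None of the annotated genes that overlap a member was itself listed in the count table.

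RefSeq (GRCm38.p6) gave promoter sequence for 5 of the 6 genes. Foxo1 and Pik3r1 are shown because they were past 1.5-fold in endothelial against other cells, and Pik3r1 also because it has 2 annotated starts that a count per gene does not separate. Each line holds the 250 bases before a start, 5′ to 3′ on the gene's strand, with every GC box in capitals (GGGCGG or its reverse complement CCGCCC).
Foxo1, chr3:52268087-52268336, plus strand: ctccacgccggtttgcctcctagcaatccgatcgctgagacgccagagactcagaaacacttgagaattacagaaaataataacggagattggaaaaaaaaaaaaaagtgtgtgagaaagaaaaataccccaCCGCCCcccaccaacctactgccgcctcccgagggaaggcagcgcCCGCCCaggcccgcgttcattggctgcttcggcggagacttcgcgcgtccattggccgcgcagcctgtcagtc
Pik3r1 upstream start, chr13:101768218-101768467, minus strand: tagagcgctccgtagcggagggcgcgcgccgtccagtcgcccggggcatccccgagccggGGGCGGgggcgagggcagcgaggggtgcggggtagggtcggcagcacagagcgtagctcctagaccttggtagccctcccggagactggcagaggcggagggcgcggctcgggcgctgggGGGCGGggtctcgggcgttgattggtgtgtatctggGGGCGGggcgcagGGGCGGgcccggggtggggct
Pik3r1 downstream start, chr13:101692631-101692880, minus strand: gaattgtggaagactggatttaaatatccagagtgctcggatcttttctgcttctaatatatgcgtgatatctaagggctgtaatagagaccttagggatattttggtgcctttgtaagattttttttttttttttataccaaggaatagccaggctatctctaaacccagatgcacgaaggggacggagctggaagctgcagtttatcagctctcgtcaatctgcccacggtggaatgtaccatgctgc
The Foxo1 window was 56% G or C with 20 CpG dinucleotides and held 2 GC boxes. The upstream Pik3r1 window was 76.4% G or C with 30 CpGs and 4 GC boxes, whereas the downstream one was 42.4% with 6 CpGs and held none. The median over 32851 promoter windows was 52.4% with 6 CpGs, and 32.7% of windows held a GC box. The forkhead core GTAAACA was absent on both strands from the Foxo1, Foxo3, Pik3ca and Pik3r1 windows and present once in 1 of the 2 Akt1 windows. It occurred in 3.17% of all windows. Among the 19 known FOXO target genes listed below, 17 had an entry, and 3 of their 22 windows held the core, those of Bcl2l11, Mxi1 and Txnip.

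Across cell types, Foxo1 had the highest ratio of endothelial to other cells among the members. Cells were gated by UMIs of marker genes, without regard to hashtag, which left 9 types with at least 50 cells. Among them were 168 basal keratinocytes, 156 chondrocytes and 152 neural progenitors or glia, which are not heart or liver types. Their source was not tested. Foxo1 was at 119 CPM (108 to 131) in 356 sinusoidal cells, which line the liver capillaries, and at 82.5 (77.9 to 87.4) in 944 capillary cells. In the other 7 types it lay between 7.13 in neural progenitors or glia and 24.3 in hepatocytes. The sinusoidal level was 1.44 times the capillary level (1.29 to 1.61), and the capillary level was 3.4 times that of hepatocytes (2.61 to 4.51). Of the sinusoidal cells, 323 carried the iSuRe-Cre liver hashtag, whereas capillary cells with a hashtag were mostly from heart. Type and group can therefore not be told apart in the sinusoidal to capillary ratio. Within iSuRe-Cre liver, Foxo1 was at 117 CPM (106 to 129) in sinusoidal-gated and 131 (101 to 167) in 31 capillary-gated cells. Below hepatocytes, each neighbour in the order chondrocyte, mesenchymal, macrophage, basal keratinocyte, neutrophil lineage and glia differed from the one above it by a ratio whose interval held 1. No other type overlapped the endothelial intervals.

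**Figure D1:**
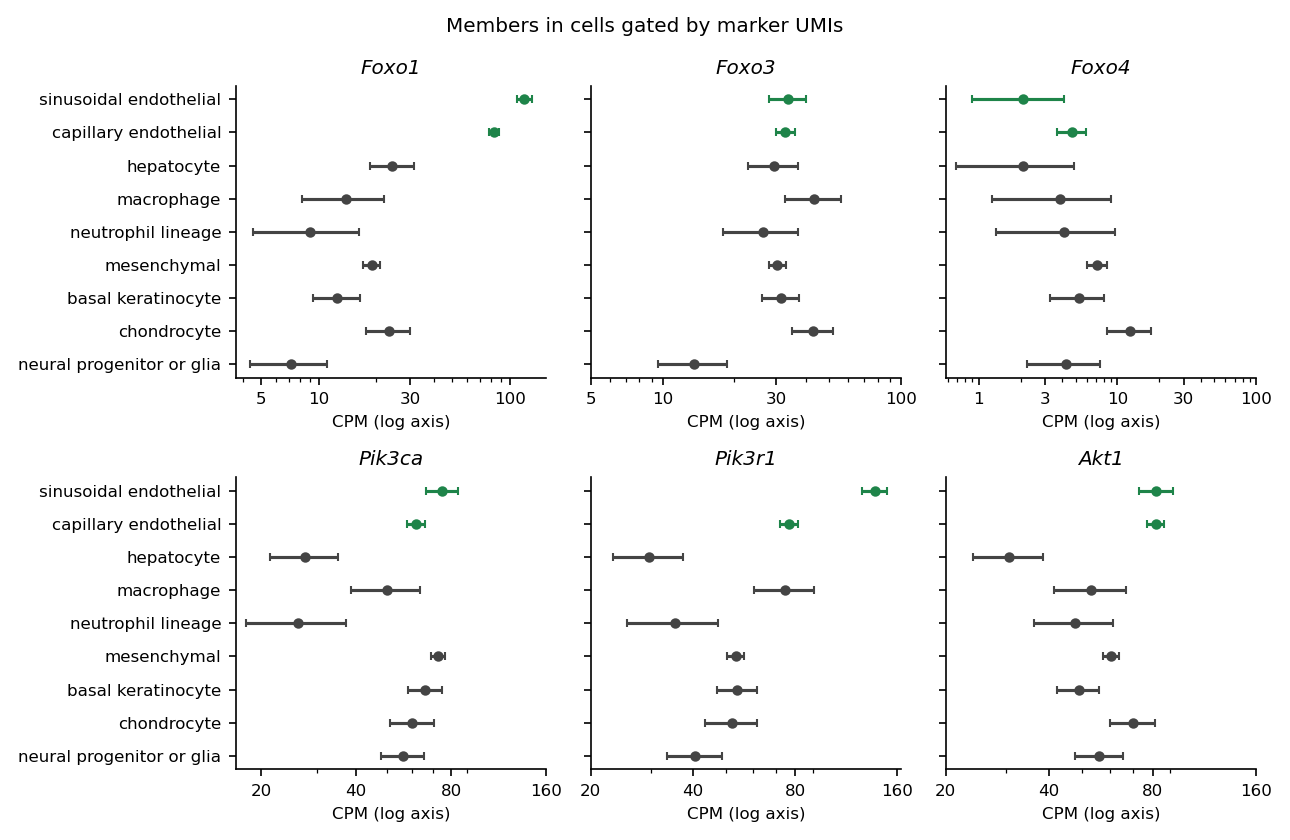
Levels of the 6 members in 9 cell types gated by marker UMIs, in CPM on a log axis. Points are summed levels, bars are exact 95% Poisson intervals (counting error only), and green marks the endothelial types. Foxo1 in both endothelial types, from 82.5 to 119, lies to the right of every other type, which reach 24.3 at most, whereas Foxo3 runs from 26.3 to 43 in 8 types, with glia at 13.6.

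Pik3r1, the regulatory subunit, also had its highest level in sinusoidal cells, at 137 CPM (126 to 149). Capillary cells followed at 76.8 (72.3 to 81.4), a level that the sinusoidal one exceeded 1.79-fold (1.61 to 1.98). Within iSuRe-Cre liver the 2 gates had overlapping intervals, at 137 (125 to 150) in sinusoidal and 105 (78.2 to 137) in capillary cells. Macrophages were at 74.5, within counting error of capillary cells, and basal keratinocytes at 54, mesenchymal cells at 53.4, chondrocytes at 51.9, glia at 40.7, neutrophil-lineage cells at 35.3 and hepatocytes at 29.7. Only the steps from sinusoidal to capillary cells and from macrophages to keratinocytes had intervals that left out 1.

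Pik3ca, the catalytic subunit, was at 75.1 CPM in sinusoidal and 72.6 in mesenchymal cells, and then at 66.2 in basal keratinocytes, 62.1 in capillary cells, 60.3 in chondrocytes, 56.3 in glia and 49.9 in macrophages, with each neighbour inside counting error of the next. Hepatocytes at 27.6 and neutrophil-lineage cells at 26.3 stood below, with macrophages 1.81 times the hepatocyte level (1.26 to 2.59). Akt1 had a similar floor in hepatocytes, at 30.5 (23.9 to 38.4). By the mean of the cells' shares, Akt1 was at 44.4 in hepatocytes and 39.98 in macrophages, so hepatocytes were not lowest by that measure. The highest summed Akt1 levels were 82.1 in sinusoidal and 81.6 in capillary cells, with a ratio of 1.01 (0.885 to 1.14). The 6 types in between ran from 70.3 in chondrocytes to 47.6 in the neutrophil lineage.

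Foxo3 lay, in 8 of the 9 types, between 26.3 CPM in the neutrophil lineage and 43 in macrophages, with sinusoidal cells at 33.6 and capillary cells at 32.7. Glia were lower, at 13.6 (9.59 to 18.6). Foxo4 was sparse everywhere. It was highest in chondrocytes, with 31 UMIs or 12.4 CPM (8.41 to 17.6), followed by mesenchymal cells at 7.17, a step of 1.73-fold (1.13 to 2.56). It was at 4.71 in capillary cells and 2.08 in sinusoidal cells, where it rested on 8 UMIs.

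Summed over the 1300 cells of both endothelial types against the 2097 cells of the other 7, Foxo1 was at 90.2 against 17.3 CPM, a ratio of 5.2 (4.74 to 5.72). Pik3r1 had a ratio of 1.76 (1.64 to 1.88), Akt1 1.44 (1.35 to 1.54), Foxo3 1.09 (0.982 to 1.2), Pik3ca 1.01 (0.942 to 1.09) and Foxo4 0.639 (0.486 to 0.832). Thus 2 of 6 members were past the limit upwards, where 20.2% of 15461 genes were, and 1 downwards, where 36.7% were. The types were chosen by marker UMIs and Cdh5, none of which is a member. In types with fewer than 50 cells only counts are given: 14 lymphatic endothelial cells held 79 Foxo1 UMIs of 320979, 47 large-vessel cells 90 of 635041 and 30 endocardial cells 54 of 413075, whereas 37 erythroid cells held 9 of 2134361. Macrophage and neutrophil-lineage gates carried the leukocyte gene Ptprc at 237 and 265 CPM, and all 7 other types had no Cdh5 UMI by construction.

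Free RNA, read in 24194 barcodes of 10 to 100 UMIs, held every member: Foxo1 at 43.3 CPM, Foxo3 at 63.9, Foxo4 at 4.33, Pik3ca at 55.3, Pik3r1 at 68.3 and Akt1 at 53.1. The Foxo3 level of free RNA (48.7 to 82.5) was above the point value of every gated type. Foxo1 was detected in 58.6% of capillary cells (median 11952 UMIs) and in 10.5% of glia (median 16918 UMIs), the type with least of it. Thinned to 2000 UMIs per cell, the same shares were 15.4% and 1.26%.

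The genes whose levels over the 9 types ran most like a member's were found by Pearson correlation of log2(CPM + 10) among 11943 genes. These points come from 1 library and share its depth, so the values are descriptive. Pnpla6 (r = 0.975), Arfip1 (0.975) and Cdc42bpb (0.971) ran most like Foxo1, and Fcho2 (0.971), Ankfy1 (0.969) and Usp38 (0.964) most like Pik3r1. For Pik3ca they were Fam13b (0.983), Parg (0.978) and Jarid2 (0.975), and for Akt1 Dnajc5 (0.973), App (0.969) and Stx6 (0.969). For Foxo3 the values were lower, with Bcap31 (0.872), Reep5 (0.859) and Anxa5 (0.858). Foxo4 ran with Cox4i2 (0.962), Hspb11 (0.945) and 4930447C04Rik (0.934). Among the members themselves the highest value was between Akt1 and Pik3r1 (0.774). Pik3ca with Pik3r1 gave 0.694, and Foxo1 with Foxo3 gave 0.356.

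In heart endothelium, Foxo3, Pik3ca, Pik3r1 and Foxo1 were all highest in iSuRe-HadCre. Foxo3 was at 47.4 CPM (40 to 55.7) in iSuRe-HadCre heart against 28.4 (22.7 to 35.1) in control and 26.4 (23 to 30.1) in iSuRe-Cre heart. Control and iSuRe-Cre overlapped, and iSuRe-HadCre lay above both. Pik3ca was at 88 (77.9 to 99.1), 68.3 (59.3 to 78.3) and 51.7 (46.9 to 56.8) in the same order. Here the iSuRe-Cre interval lay below the control one and the iSuRe-HadCre interval barely met it. Foxo1 was at 105 (94 to 117), 87.1 (76.9 to 98.3) and 77.2 (71.3 to 83.4), and Pik3r1 at 90.2 (80 to 101), 66 (57.2 to 75.8) and 69.5 (63.9 to 75.4). The iSuRe-HadCre interval of Foxo1 still met that of control, and that of Pik3r1 lay above both others. Akt1, at 74.4, 81.8 and 84.5, had overlapping intervals in all 3 groups. Foxo4 rested on 27, 19 and 21 UMIs, or 8.7, 6.27 and 2.53 CPM.

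**Figure D2:**
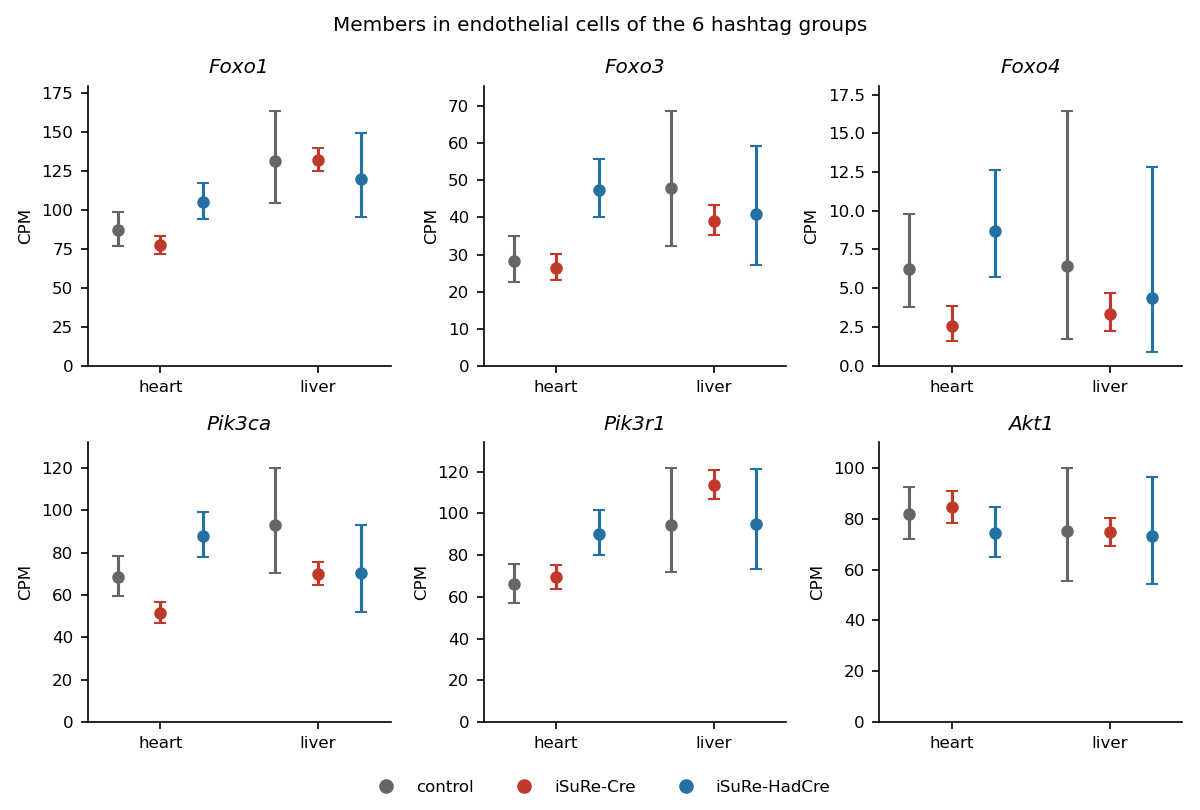
Levels of the members in endothelial cells of the 6 hashtag groups, in CPM on linear axes from 0. Points are group sums (1 sample each) and bars exact 95% Poisson intervals (counting error only). In heart, Foxo3, Pik3ca and Pik3r1 are highest in iSuRe-HadCre (blue), and in liver the intervals of the 3 groups overlap for each member.

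Against control heart, iSuRe-Cre had none of the 6 members past the limit upwards (11.1% of 12179 genes were) and only Foxo4 downwards (11.5% of genes were), with a ratio of 0.403 (0.206 to 0.793). Pik3ca had a ratio of 0.756 (0.639 to 0.897), short of the limit, and Foxo1 0.886 (0.766 to 1.03). Foxo3, Pik3r1 and Akt1 lay between 0.929 and 1.05 with intervals that held 1. The median over all genes tested was 0.961. The median cell held 16379 UMIs in iSuRe-Cre and 9100 in control heart. Split by UMIs per cell, Foxo1 was at 0.839 (0.59 to 1.19) from 5000 to 10000 and 0.743 (0.587 to 0.944) from 10000 to 20000. Above 20000 it was at 1.33 (1.01 to 1.77), the opposite direction. Pik3ca was at 0.644, 0.762 and 0.873 in these classes, each with an interval that held 1.

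iSuRe-HadCre against control heart had 1 of 6 members past the limit upwards, where 15.2% of 11453 genes were, and 0 downwards, where 3.83% were. This was Foxo3, with a ratio of 1.67 (1.27 to 2.2). Pik3r1 at 1.37 (1.14 to 1.65), Pik3ca at 1.29 (1.07 to 1.55) and Foxo1 at 1.21 (1.02 to 1.42) had intervals above 1 but stayed short of the limit, and Akt1 was at 0.91 (0.757 to 1.09). The median over all genes was 1.1, and divided by it Foxo3 was at 1.52 and Foxo1 at 1.1. Split by UMIs per cell, the Foxo1 interval held 1 in each class. Pik3r1 left out 1 only at 5000 to 10000 UMIs (2.1, 1.43 to 3.17), and Pik3ca only above 20000 (1.45, 1.02 to 2.05). Foxo3 was at 1.72 (1.03 to 2.97) and 2.35 (1.32 to 4.29) in the classes from 5000 to 20000. Its interval held 1 below 5000 UMIs (1.04, 0.409 to 2.74) and above 20000 (1.23, 0.759 to 2.01). Akt1 was lower from 10000 to 20000 UMIs, at 0.614 (0.429 to 0.869), and its interval held 1 in the other classes.

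iSuRe-HadCre against iSuRe-Cre heart had 3 of 6 members past the limit upwards, where 23.2% of 12367 genes were, and 0 downwards, where 6.78% were. Foxo3 had a ratio of 1.8 (1.45 to 2.22), Pik3ca 1.7 (1.46 to 1.99) and Foxo4, from 27 and 21 UMIs, 3.44 (1.87 to 6.4). Foxo1 at 1.36 (1.19 to 1.56) and Pik3r1 at 1.3 (1.12 to 1.5) were higher but short of the limit, and Akt1 was at 0.881 (0.756 to 1.02). The median over all genes was 1.16. Divided by it, Foxo3 was at 1.55, Foxo4 at 2.97 and Pik3ca at 1.47, so that 2 members stayed past the limit.

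**Figure D3:**
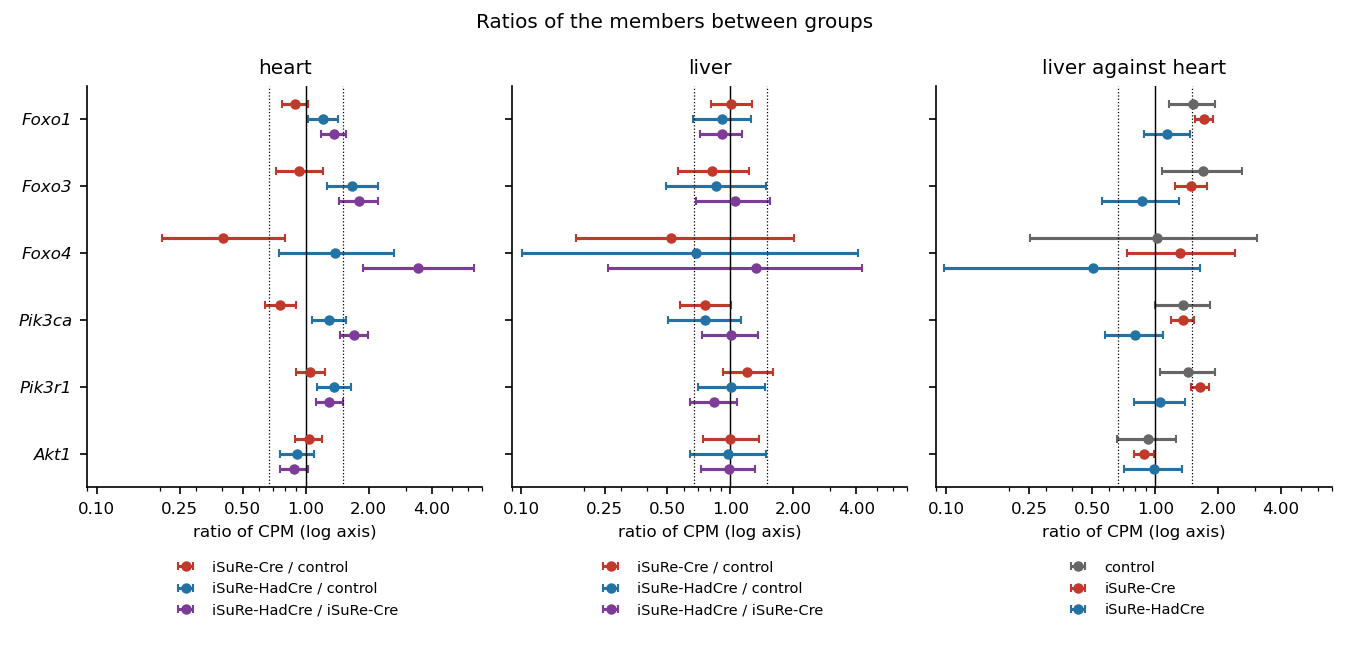
Ratios of CPM between groups for the 6 members, on a log axis, in heart, in liver and between the organs. Bars are exact conditional 95% intervals (counting error only), the solid line marks a ratio of 1 and dotted lines the 1.5-fold limits. Foxo3, Foxo4 and Pik3ca pass the upper limit for iSuRe-HadCre against iSuRe-Cre in heart, while Akt1 lies between 0.881 and 1.03 in heart.

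The 2 recombinase groups of heart also differed in depth, with median cells of 7322 and 16379 UMIs, and in Cdh5, at 1251 and 975 CPM. Summed markers of capillary cells were at 12499 CPM in iSuRe-HadCre and 15705 in iSuRe-Cre heart, and those of hepatocytes at 44.5 and 365. Among cells of 5000 to 10000 UMIs (154 and 82 cells), Foxo3 had a ratio of 2.22 (1.28 to 4.04), Pik3ca of 1.74 (1.17 to 2.63), Pik3r1 of 1.74 (1.22 to 2.52) and Foxo1 of 1.46 (1.09 to 1.99). Among cells of 10000 to 20000 UMIs (61 and 174 cells) the ratios were 1.89 (1.2 to 2.93) for Foxo3, 1.78 (1.33 to 2.39) for Pik3ca, 1.27 (0.942 to 1.7) for Pik3r1 and 1.32 (1.01 to 1.71) for Foxo1. Above 20000 UMIs (28 and 169 cells) Pik3ca was at 1.66 (1.27 to 2.14) and Foxo3 at 1.43 (0.969 to 2.07), while Foxo1 was at 0.829 (0.615 to 1.1) and Pik3r1 at 1.03 (0.787 to 1.34). Pik3ca was thus higher within each of these 3 classes, the Foxo3 interval held 1 in the deepest class, and the Foxo1 and Pik3r1 intervals held 1 there too. Akt1 was lower from 10000 to 20000 UMIs, at 0.708 (0.508 to 0.969), and its interval held 1 in the other classes compared. Below 5000 UMIs there were 68 iSuRe-HadCre cells with 20 Pik3ca UMIs (72.1 CPM, 44 to 111) and only 10 iSuRe-Cre cells with 4 (99.98 CPM, 27.2 to 256), too few to compare. Within capillary-gated heart cells (132 and 253), Foxo3 was at 2.09 (1.54 to 2.81), Pik3ca at 1.7 (1.36 to 2.13), Foxo1 at 1.46 (1.19 to 1.77) and Pik3r1 at 1.34 (1.08 to 1.65).

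**Figure D4:**
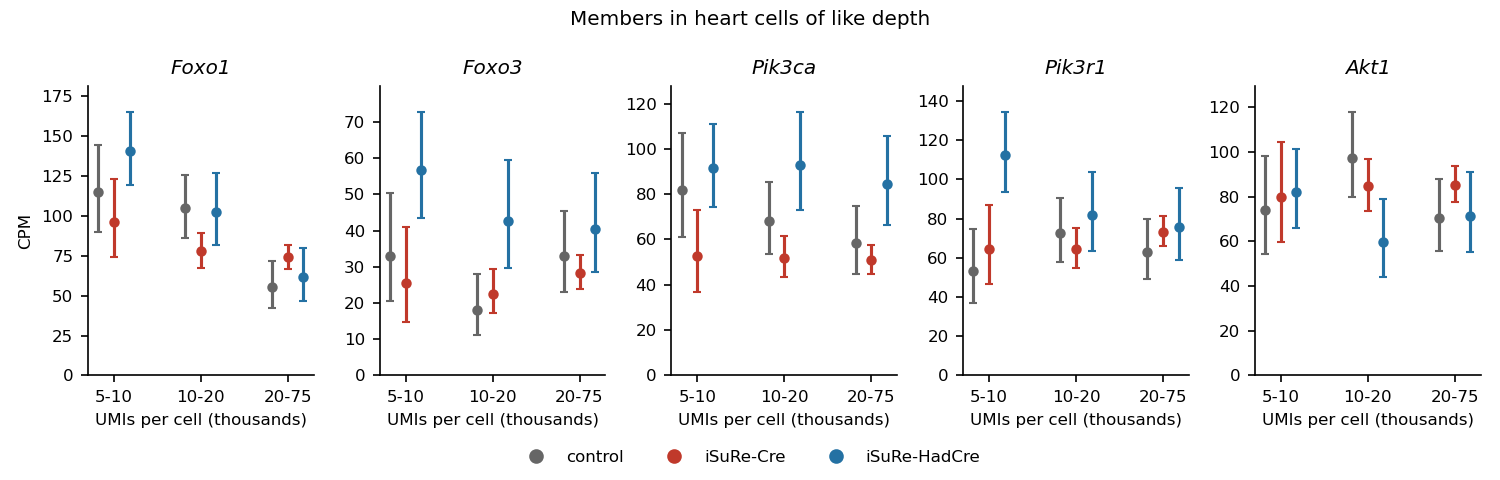
Levels of 5 members in heart cells split by UMIs per cell (5000 to 10000, 10000 to 20000 and 20000 to 75000), in CPM on linear axes from 0, with exact 95% Poisson intervals. Foxo3 and Pik3ca are highest in iSuRe-HadCre in each of these classes, whereas Foxo1 is lower in the deepest cells, at 55.7 to 74 in the 3 groups, than in the shallowest, at 96.3 to 141. Cells below 5000 UMIs are not shown. There Pik3ca was at 72.1 in iSuRe-HadCre and 80.5 in control (68 and 50 cells), and Foxo3 at 46.9 and 45.3, with overlapping intervals.

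Shares of cells with a UMI were read beside depth. Foxo1 was detected in 65.7% of iSuRe-Cre (61.1 to 70.2), 56.7% of control (50.4 to 62.9) and 54.3% of iSuRe-HadCre heart cells (48.6 to 60), and after thinning to 2000 UMIs in 14.5%, 17% and 20.3%. For Foxo3 the thinned shares were 4.86%, 5.8% and 8.73%, and for Pik3ca 9.82%, 13.5% and 14.9%. The unthinned order of Foxo1 went against its CPM levels and is not read as a difference.

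In liver endothelium no difference between groups was detectable for Foxo1, Foxo3, Pik3ca, Pik3r1 or Akt1 at this depth. Foxo1 was at 131 CPM (105 to 163) in control liver, at 132 (125 to 140) with iSuRe-Cre and at 120.1 (95.5 to 149) with iSuRe-HadCre. Foxo3 was at 48.1 (32.4 to 68.6), 39.1 (35.2 to 43.3) and 41 (27.2 to 59.3), and Pik3r1 at 94.5 (72 to 122), 114 (107 to 121) and 95.2 (73.5 to 121). Akt1 was at 75.3, 74.7 and 73.2. The groups overlapped for each of these genes. Pik3ca was at 92.9 (70.6 to 120.1) in control and at 69.9 (64.6 to 75.5) and 70.3 (51.8 to 93.2) in the recombinase lines, also with overlapping intervals.

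iSuRe-Cre against control liver had 0 of 6 members past the limit upwards (14.6% of 12539 genes were) and 1 downwards (20.6% were). This was Foxo4, at 0.518 (0.183 to 2.02) from 31 and 4 UMIs, whose interval held 1. Pik3ca was at 0.752 (0.574 to 1.002), an interval that just held 1. iSuRe-HadCre against control liver had 5 members with at least 20 UMIs and none past the limit (10.8% of 8324 genes were upwards and 11.5% downwards). The widest of these intervals, that of Foxo3, ran from 0.491 to 1.48. iSuRe-HadCre against iSuRe-Cre liver also had 0 of 6 members past it (17.7% of 12510 genes upwards and 14.4% downwards), with Foxo1 at 0.908 (0.717 to 1.14) and Pik3r1 at 0.837 (0.641 to 1.08). In this comparison Foxo3 was at 1.05 (0.688 to 1.54) in liver beside 1.8 in heart, and Pik3ca at 1.01 (0.734 to 1.35) beside 1.7. The difference between organs was not tested, since each group is 1 sample.

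The liver groups differed in makeup. Summed sinusoidal markers were at 128 CPM in control liver, 2391 with iSuRe-Cre and 577 with iSuRe-HadCre, large-vessel markers at 585, 236 and 392.4, and neutrophil-lineage markers at 11.2, 629 and 14.6. None of the sinusoidal or large-vessel markers was at 0 in a group. Within iSuRe-Cre liver, sinusoidal-gated cells had more Pik3r1 than the rest, at 137 against 99.8 CPM (ratio 1.37, 1.21 to 1.55), and less Foxo1, at 117 against 141 (0.826, 0.732 to 0.931). Foxo3 was at 32.8 against 42.9 (0.765, 0.608 to 0.957). The part of these cells in the liver comparisons was not tested.

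Between organs, Foxo1 was higher in liver than in heart endothelium of control and iSuRe-Cre pups. The liver to heart ratio was 1.71 (1.56 to 1.89) with iSuRe-Cre and 1.51 (1.16 to 1.94) in control, and with iSuRe-HadCre it was 1.14 (0.886 to 1.46), an interval that held 1. In the same order Pik3r1 was at 1.64 (1.48 to 1.81), 1.43 (1.05 to 1.92) and 1.05 (0.792 to 1.39), and Foxo3 at 1.48 (1.25 to 1.76), 1.69 (1.08 to 2.59) and 0.865 (0.556 to 1.3). Pik3ca was at 1.35 (1.2 to 1.53), 1.36 (0.999 to 1.83) and 0.799 (0.575 to 1.09). Akt1 was at 0.884 (0.795 to 0.983), 0.92 and 0.983.

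Past the limit upwards were Foxo1 and Foxo3 in control (2 of 6 members, against 20.2% of 10458 genes, with 0 downwards against 11.3%). In iSuRe-Cre they were Foxo1 and Pik3r1 (2 of 6, against 21.9% of 13263 genes, with 0 downwards against 10.1%). In iSuRe-HadCre none was past it upwards (12.4% of 10820 genes were), and 1 was downwards (15.2% were), Foxo4, at 0.505 (0.098 to 1.64) from 3 and 27 UMIs. Median ratios over all genes were 1.1 with iSuRe-Cre, 1.08 in control and 0.994 with iSuRe-HadCre. Divided by them, Foxo1 in control was at 1.39, Pik3r1 in iSuRe-Cre at 1.48 and Foxo1 in iSuRe-Cre at 1.55. In control, 1 member, Foxo3, stayed past the limit. The capillary gate held 31 iSuRe-Cre, 12 iSuRe-HadCre and 10 control liver cells. Within it the Foxo1 ratio was 0.959 (0.513 to 1.65) in control and 1.8 (1.36 to 2.34) in iSuRe-Cre, so the higher Foxo1 of control liver was not seen in these few cells. With iSuRe-HadCre, gated Foxo1 was lower in liver, at 70.2 CPM (33.7 to 129) against 106 (89.1 to 125) in heart, with overlapping intervals.

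Ranked over the 6 groups, Foxo1 ran from iSuRe-Cre liver at 132 down to iSuRe-Cre heart at 77.2, and the only neighbours whose ratio left out 1 were iSuRe-HadCre heart and control heart (1.21, 1.02 to 1.42). For Foxo3 the step lay between iSuRe-Cre liver and control heart (1.38, 1.09 to 1.76), for Pik3ca between control heart and iSuRe-Cre heart (1.32, 1.11 to 1.56), and for Pik3r1 between iSuRe-HadCre heart and iSuRe-Cre heart (1.3, 1.12 to 1.5). Foxo4 and Akt1 had no such step.

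The wider pathway was followed through 7 lists: 11 other PI3K subunits, 9 genes of other AKT and SGK kinases and of the complexes that activate them, 7 brakes, 7 receptors and adaptors, 7 outputs of AKT and mTORC1, 6 partners and relatives of FOXO factors, and 19 genes known as FOXO targets. Pik3ip1 and Irs2 stood in a second list as targets. In iSuRe-Cre against control heart, 6 of 10 measured other PI3K subunits were past the limit downwards and 0 upwards, where 11.5% of all genes tested were past it downwards and 11.1% upwards, with a median ratio of 0.648 beside 0.961 over all genes. Brakes on the pathway had 3 of 7 downwards (median 0.821), among them Pik3ip1, an inhibitor of PI3K, at 14.1 against 33 CPM (0.427, 0.324 to 0.563). AKT and its kinases had 0 of 9 past the limit (median 0.925) and AKT-mTORC1 outputs 1 of 7 (0.799). The receptors and adaptors split, with 2 of 7 upwards and 2 downwards. The VEGF receptor Kdr was at 480.4 against 184 (2.61, 2.39 to 2.86).

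FOXO target genes in iSuRe-Cre against control heart had 1 of 19 past the limit upwards and 5 downwards, with a median of 0.806, beside the same 11.1% and 11.5% of all genes. Txnip, which binds thioredoxin and limits glucose uptake, was at 237 against 601 (0.394, 0.369 to 0.42). Fbxo32, an atrophy ubiquitin ligase, was at 9.27 against 17.2 (0.54, 0.375 to 0.784), and Pdk4, a brake on pyruvate oxidation, at 10.6 against 5.28 (2.01, 1.17 to 3.66). Partners and relatives of FOXO had 2 of 5 upwards, one of them the proliferation factor Foxm1, at 1.58 (0.983 to 2.63), and 1 downwards.

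In iSuRe-HadCre against control heart, FOXO targets had 3 of 19 upwards and 3 downwards (median 1.04 beside 1.1 over all genes), where 15.2% of all genes were past the limit upwards and 3.83% downwards. Txnip was at 367 against 601 (0.61, 0.566 to 0.658), and Gadd45a, a growth arrest gene, at 7.73 against 12.5 (0.617, 0.354 to 1.06). Other PI3K subunits had 0 of 10 upwards and 1 downwards (median 1.14), AKT and its kinases 2 of 9 upwards (1.22), and brakes 2 of 7 upwards and 1 downwards (1.28). Inpp4b, a lipid phosphatase that acts against PI3K signalling, was at 36.1 against 14.9 (2.43, 1.71 to 3.52). Kdr was at 831 against 184 (4.51, 4.12 to 4.96), and the insulin receptor substrate Irs2 at 11.9 against 6.27 (1.9, 1.07 to 3.5). Receptors had 3 of 7 upwards (1.24), outputs 0 of 7 (0.971), and partners and relatives 1 of 5 in each direction (1.08).

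In iSuRe-HadCre against iSuRe-Cre heart, all 7 list medians but that of partners and relatives (1.04, with 1 of 5 upwards and 2 downwards) were above the 1.16 of all genes. Of all genes, 23.2% were past the limit upwards and 6.78% downwards. Other PI3K subunits had 6 of 10 upwards (median 1.65), brakes 5 of 7 (1.86), receptors and adaptors 6 of 7 (1.72), AKT and its kinases 3 of 9 (1.28) and outputs 0 of 7 (1.3), with 0 downwards in each. FOXO targets had 7 of 19 upwards and 1 downwards (1.44). Bcl6, a transcriptional repressor, was at 11 against 2.65 (4.14, 2.35 to 7.42), Phlpp1, a phosphatase that acts on AKT, at 207 against 90.7 (2.29, 2.05 to 2.54), and Irs2 at 2.2 (1.38 to 3.48). Pdk4, at 0.517 (0.288 to 0.876), and the forkhead factor Foxc1, at 0.619 (0.465 to 0.813), were lower. The 3 heart comparisons share groups, so they are not separate evidence.

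**Figure D5:**
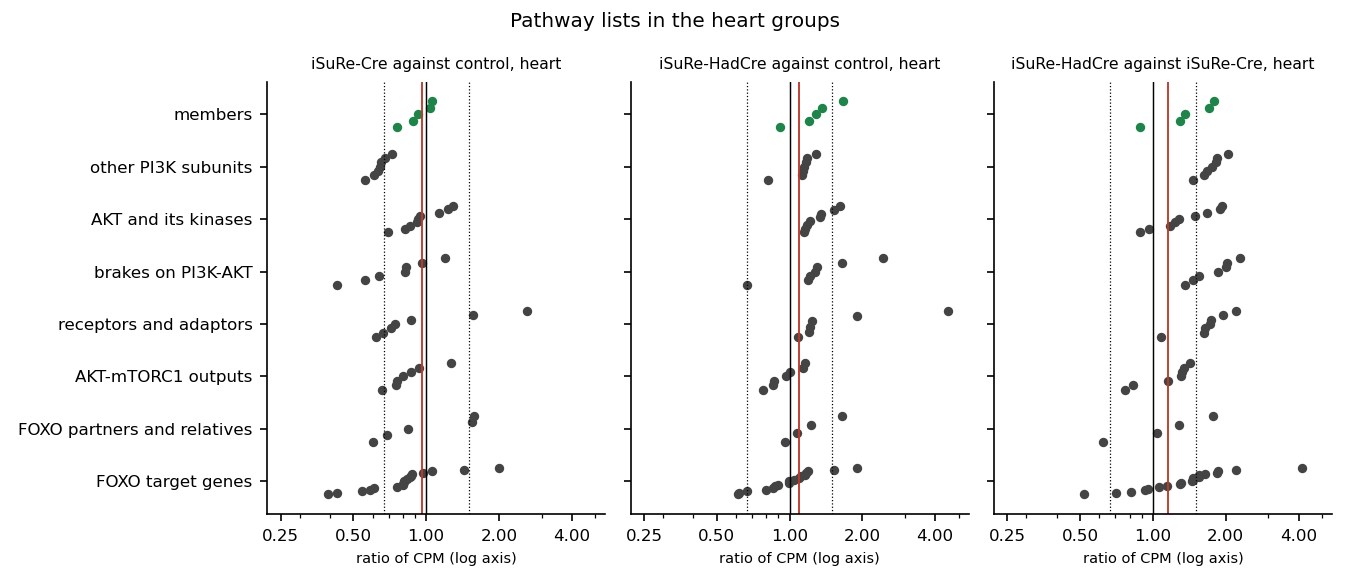
Ratios of CPM for single genes of the members (green) and of 7 pathway lists (grey) in the 3 heart comparisons, on a log axis, for genes with at least 50 UMIs, which leaves out Foxo4. The black line marks 1, the red line the median over all genes tested (0.961, 1.1 and 1.16), and dotted lines the 1.5-fold limits. Other PI3K subunits sit left of the red line in iSuRe-Cre against control and right of it in iSuRe-HadCre against iSuRe-Cre.

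In iSuRe-Cre against control liver, brakes had 4 of 7 downwards and 0 upwards (median 0.601 beside 0.935 over all genes), where 20.6% of all genes were downwards and 14.6% upwards, with Pik3ip1 at 7.6 against 27.2 (0.279, 0.163 to 0.505). The catalytic subunit Pik3cb was at 12 against 35.3 (0.34, 0.214 to 0.564), Kdr at 771 against 231 (3.34, 2.83 to 3.97), and FOXO targets had 4 of 19 in each direction (0.967). Cited2, a transcriptional co-regulator, was at 28 against 73.7 (0.381, 0.277 to 0.533). In iSuRe-HadCre against control liver, FOXO targets had 4 of 14 upwards and 2 downwards (0.963, with 10.8% and 11.5% of all genes), and the insulin receptor Insr was at 51.2 against 106 (0.485, 0.312 to 0.741). Pik3c2b, a class II PI3K, was at 70.3 against 33.7 (2.09, 1.23 to 3.67) and the kinase Sgk1 at 279.7 against 141 (1.98, 1.53 to 2.58). In iSuRe-HadCre against iSuRe-Cre liver, other PI3K subunits had 5 of 11 upwards (median 1.44 beside 1.05 over all genes, of which 17.7% were upwards and 14.4% downwards), with Pik3cb at 2.2 (1.26 to 3.64), and FOXO targets 3 of 19 upwards and 2 downwards (1.17). Pdk4 had 0 UMIs in iSuRe-HadCre liver against 30.4 CPM in iSuRe-Cre liver, a ratio of 0.144 with the 0 put at a floor of 3 UMIs and an exact upper limit of 0.179.

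Between organs, Inpp4b and Insr were at higher levels in liver in each line. Inpp4b was at 70.5 against 14.9 CPM in control (4.75, 3.06 to 7.36). With iSuRe-Cre it was at 75.7 against 17.8 (4.25, 3.55 to 5.1), and with iSuRe-HadCre at 63 against 36.1 (1.74, 1.2 to 2.5). Insr was at 4.01 (2.85 to 5.62) in control and 2.51 (2.1 to 3.02) in iSuRe-Cre, and with iSuRe-HadCre it was at 51.2 against 31.9 CPM. Pdk4 in iSuRe-Cre was at 30.4 against 10.6 CPM (2.87, 2.25 to 3.69). Pik3cb was lower in liver, at 0.288 (0.23 to 0.357) with iSuRe-Cre and 0.36 (0.21 to 0.582) with iSuRe-HadCre. In control it was at 35.3 against 64 CPM. FOXO targets had 6 of 19 upwards and 3 downwards with iSuRe-Cre (median 0.987), beside 21.9% and 10.1% of all genes. In control they had 1 and 6 of 17 (0.809), beside 20.2% and 11.3%, and with iSuRe-HadCre 1 and 2 of 18 (0.918), beside 12.4% and 15.2%.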

How the data were processed

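Per the labels, the study's methods and the submitters' processing notes, alignment and counting by the authors used Cell Ranger 7.1.0 and GRCm38 extended by the transgenes. The deposited table holds raw UMI counts of 2755147 barcodes, neither filtered nor normalized. A further 7 hashtag and multiplexing features with no group in the labels were not used. A barcode was assigned to a group when 1 hashtag reached 25 UMIs (140 for hashtag 302) and the others stayed below their minimum; 5585 endothelial barcodes reached none and 131 several, and neither went into a comparison. No doublet caller was run, and removal of doublet candidates was an alternative.

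From the counts, UMIs were summed per group or gated type and divided by the total. Intervals were exact Poisson for levels, exact binomial for shares and exact conditional for ratios, at 95%. Ratios were counted for genes with at least 20 UMIs over both groups, and a group at 0 was put at 3 UMIs. A cell type needed at least 3 UMIs of each of 2 markers, with a Cdh5 level above 0.9 for endothelial types and no Cdh5 UMI for the others, and hepatocytes also 1% of UMIs from their markers. Shares thinned to 2000 UMIs are means over all possible draws, and no cell was too shallow. List genes are named for at most 3 highest and 3 lowest ratios past the limit among those with at least 50 UMIs, and for each member the 3 genes most like it among those with at least 200. The members, markers and lists were chosen with earlier results of these data known. One gene of the list of brakes is not reported here and was left out of its counts. Statistics were checked on simulated counts. Alternatives covered hashtag, Cdh5, WPRE, mitochondrial, doublet, free RNA, makeup, normalization and count limits; those on depth and on capillary-gated cells were chosen after seeing the data. Gene positions are from GENCODE (GRCm38) and promoters from RefSeq. Python 3.11.15 and scipy 1.17.1 were used.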

Additional observations from a re-analysis of the deposited data

Results flagged for a closer look

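No member had ratios that left out 1 in opposite directions in heart and liver. Of the listed pathway genes, 4 were past 1.5-fold in opposite directions in the 2 organs with intervals that left out 1. The difference between organs was not tested, since each group is 1 sample. The VEGF receptor Kdr in iSuRe-HadCre against iSuRe-Cre was at 1.73 (1.65 to 1.82) in heart and 0.533 (0.472 to 0.601) in liver. In the same comparison the forkhead factor Foxc1 was at 0.619 (0.465 to 0.813) in heart and 1.9 (1.052 to 3.22) in liver. The co-regulator Cited2 in iSuRe-HadCre against control was at 1.52 (1.18 to 1.97) in heart and 0.536 (0.321 to 0.881) in liver. Pik3c2b in iSuRe-Cre against control was at 0.645 (0.536 to 0.778) in heart and 1.64 (1.06 to 2.68) in liver. The liver groups also differed in summed sinusoidal markers, at 2391 CPM with iSuRe-Cre, 577 with iSuRe-HadCre and 128 in control, whose part in these values was not tested.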

How the results depend on the processing

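No paired analysis was possible because each group is 1 sample and the labels carry no replicate numbers, and leaving out a replicate was not possible. Of 702 ratios recomputed under 13 alternatives, 663 stayed inside the main interval and 38 moved outside it. One reversed: Foxo1 in liver against heart of control went from 1.51 to 0.959 in capillary-gated cells (10 liver cells). Foxo3 in iSuRe-HadCre against iSuRe-Cre heart ranged from 1.55 to 2.09 and Pik3ca from 1.47 to 1.86.

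Changes in the counts of members past 1.5-fold included the following. The stricter hashtag minimum gave 2 for iSuRe-Cre and 1 for iSuRe-HadCre against control liver, and the looser one 1 for iSuRe-HadCre against iSuRe-Cre liver and 1 for liver against heart in control and in iSuRe-Cre. Without the Cdh5 criterion these last 3 were 2, 0 and 0. The 2 were downwards, where 13.5% of all genes were, whereas the 1 of the looser minimum was upwards, where 15.3% were. Cdh5 above 1.5 gave 0 for iSuRe-Cre against control liver and 1 for liver against heart in control. Requiring WPRE, leaving out doublet candidates, leaving out sinusoidal-gated cells, at least 50 UMIs and cells of 5000 to 15000 UMIs each gave 0 for iSuRe-Cre against control liver. Doublet candidates left out gave 3 for iSuRe-HadCre against control heart. Median-ratio normalization gave 1 for liver against heart in control and in iSuRe-Cre. It also put Pik3ca in iSuRe-HadCre against iSuRe-Cre heart at 1.47, short of the limit. At least 50 UMIs gave 0 for iSuRe-Cre against control heart and for liver against heart in iSuRe-HadCre. Cells of 5000 to 15000 UMIs gave 0, 3 and 5 for the 3 heart comparisons in the report's order and 1 for iSuRe-HadCre against iSuRe-Cre liver. The 3 and 5 were upwards, where 15.6% and 25.1% of all genes were, and the 1 downwards, where 15.4% were. Capillary-gated cells gave 0 for iSuRe-Cre and 3 for iSuRe-HadCre against control heart, the 3 all upwards, where 16.3% of genes were. Against control liver, iSuRe-Cre had 1 upwards and 1 downwards (19.2% and 23.9% of genes). Downwards only were 1 for iSuRe-HadCre against control liver (20.7% of genes) and 2 for iSuRe-HadCre against iSuRe-Cre liver (18.8%). Liver against heart in iSuRe-HadCre gave 3, all downwards, where 23.4% of genes were. Changes from 1 to 0 in iSuRe-Cre against control rest on Foxo4, with 40 UMIs over both heart groups and 35 over both liver groups. The causes were not tested.

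Of 162 levels by cell type, 155 stayed inside the main interval. A gate of 5 UMIs gave 29.6 for Foxo3 and 57.8 for Pik3ca in capillary cells. The mean of the cells' shares gave 32.7 for Foxo1 and 44.4 for Akt1 in hepatocytes, 39.98 for Akt1 in macrophages, 18.8 for Foxo1 in the neutrophil lineage and 33.1 for Foxo3 in mesenchymal cells. Small liver groups limit the precision: control liver held 624048 UMIs, which put Foxo3 at 30 UMIs and Foxo4 at 4.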

Other observations

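The 5585 endothelial barcodes without a hashtag, which belong to no group, held Foxo1 at 73 CPM (70.1 to 76), Foxo3 at 40.6 (38.5 to 42.9), Foxo4 at 5.25 (4.5 to 6.1), Pik3ca at 63.7 (61 to 66.5), Pik3r1 at 74.6 (71.7 to 77.6) and Akt1 at 72.6 (69.7 to 75.6). None of these was above both control groups by a ratio whose interval left out 1. Foxo1 alone was below both, at 0.838 (0.737 to 0.955) against control heart and 0.555 (0.446 to 0.701) against control liver.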
